A study of Mus musculus with 9 samples.

Results

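The genes described here are 32 mouse genes of DNA replication and S phase, the part of the cell cycle in which the chromosomes are copied. They were measured as every probe set whose array annotation gives 1 of the 32 symbols. A probe set is a group of short oligonucleotides on the array that together report 1 transcript. Of 45037 probe sets that are not controls, 70 belonged to these genes, and 69 of them carried a single symbol and named 31 genes. Chaf1a, a subunit of the histone chaperone that works behind the fork, had no annotated probe set in the table used here. The remaining probe set is shared by Tyms and its pseudogene Tyms-ps. All 31 genes passed a filter that left out the lowest 40% of probe sets, and they were tested among 12962 genes.

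Cdc6 and Cdt1 help to load the MCM ring onto origins before S phase. E2F transcription factors and cyclin E switch on the S phase programme, in which Cdc45 and the GINS complex turn that ring into the active helicase. Polymerase alpha with primase starts each strand, polymerase epsilon extends the leading strand, and PCNA, set on DNA by the RFC loader, tethers the enzymes that finish and join the fragments. Ribonucleotide reductase, thymidylate synthase, thymidine kinase and dUTPase supply and guard the nucleotides. Many of these genes are textbook targets of E2F, and their mRNA level follows how many cells of a culture are cycling.

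The RNA came from mouse embryonic fibroblasts (MEFs), primary cultures of embryonic connective tissue cells, grown in DMEM from female embryos (D12.5). The KO line carried no working copy of Oga, the gene of O-GlcNAcase, which removes the sugar O-GlcNAc from proteins. The Het line carried 1 working copy, and the WT line carried both. Oga floxed/+ males on a C57B1/6 background were bred to MMTV-cre females (B6129-Tgn(MMTV-Cre)1Mam) to delete the allele, and the heterozygous offspring were intercrossed. The Cre transgene is driven by a mammary tumour virus promoter, and no label states whether the embryos still carried it. Each genotype is 1 line, coded E7 for KO, E4 for Het and E8 for WT, and its 3 arrays are technical replicates per the design text. Every p-value and SE below therefore measures the spread between arrays of 1 line, and a difference of genotype cannot be told apart from any other difference between the 3 embryos or their cultures.

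The arrays fitted their labels at Oga, whose brightest probe set averaged 6.06 in KO, 11.16 in Het and 11.92 in WT arrays on the log2 scale, the scale of every level below. Arrays of the same line correlated at r = 0.997 to 0.999 over all probe sets, and KO with WT arrays at 0.989 to 0.991. All 12 fibroblast markers lay above the low-value limit of 6.22 in every line, although the growth factor receptor gene Pdgfra averaged 8.91 in KO, 10.84 in Het and 11.46 in WT arrays. Markers of other cell types differed between the lines. The 14 measured macrophage markers summed, on the linear scale, to 16788 to 17578 in KO arrays, 46067 to 48918 in Het arrays and 57987 to 59566 in WT arrays, with none below the limit in any line. The sum of 12 skeletal muscle markers was 5048 to 5204 in KO, 3088 to 3423 in Het and 2084 to 2185 in WT arrays, and Myod1, Myf5 and Ttn were below the limit in all 3 lines. The sum of 9 epithelial markers was 1709 to 1821 in KO, 1178 to 1192 in Het and 1094 to 1130 in WT arrays, with Cdh1, Cldn7 and Krt14 below the limit throughout. For 8 endothelial markers it was 592 to 634 in KO, 551 to 558 in Het and 560 to 590 in WT arrays, with Pecam1, Cdh5, Tek, Tie1 and Vwf below the limit throughout. In RNA from a whole culture, fewer cells of a type and less RNA per cell cannot be told apart, and the part of these cell types in the differences below was not tested.

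Most replication genes that differed between KO and WT were lower in the KO line, by small amounts. Of the 31 genes, 15 fell, 3 rose and 13 did not pass (limma, Benjamini-Hochberg adjusted p below 0.05 over all 12962 genes). Among all genes 53.1% passed in this comparison, so the share of replication genes that passed, 58.1%, was near the background. The split by direction was 48.4% lower and 9.68% higher, where all genes gave 31.5% lower and 21.6% higher. None of the 31 reached 2-fold, a size that 3.56% of all genes reached together with the p threshold. The folds of the 18 genes that passed ran from 1.11 to 1.52. The median log2 difference was -0.13 over the replication genes and -0.03 over all genes. In 16 genes all 3 KO arrays lay below all 3 WT arrays, and in 4 they lay above, where the same held for 36.1% and 25.7% of all genes. The 13 genes that did not pass differed by -0.13 to 0.10, and their 95% confidence intervals lay between -0.28 and 0.21.

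**Figure D1:**
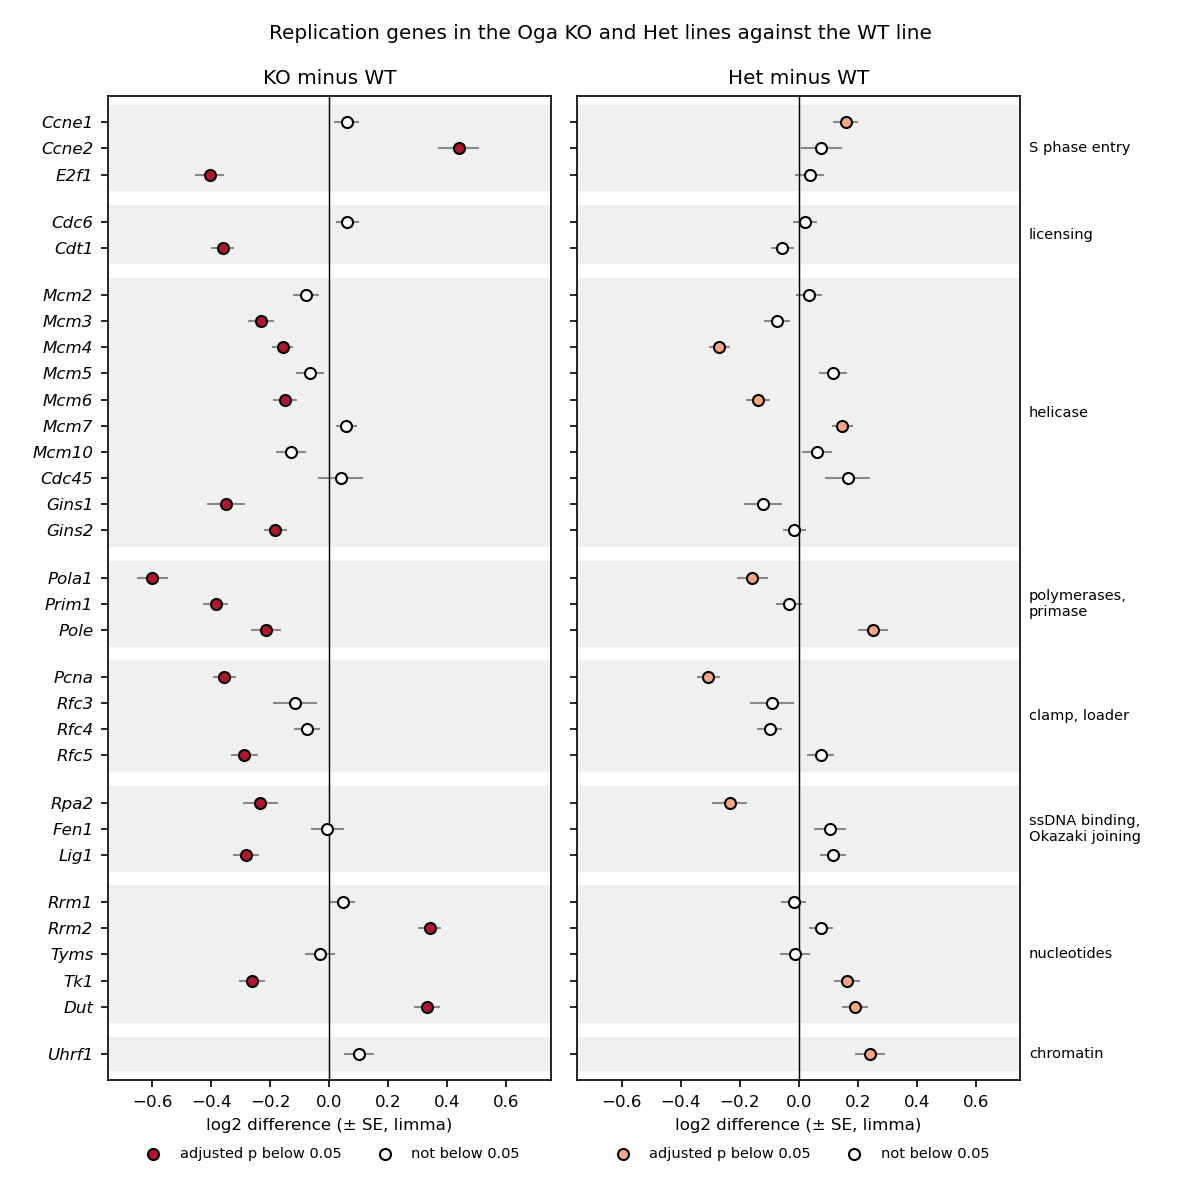
Log2 difference of each replication gene, KO minus WT (left) and Het minus WT (right), with the SE of the limma fit over 3 arrays per line; genes are grouped by role, and filled points have an adjusted p below 0.05. In the KO panel all 3 polymerase and primase genes lie left of 0, down to -0.60 for Pola1, while Ccne2, Rrm2 and Dut lie at 0.33 to 0.44; in the Het panel the points spread to both sides of 0.

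Because many members are known E2F targets, their promoters were searched for E2F sites in RefSeq windows of assembly GRCm38.p6, from 250 bases before to 50 bases after the gene's start. The letters searched were TTTCCCGC, TTTGGCGC, TTTCGCGC and TTTGCCGC on both strands. None of the 4 contains another, but a site that reads the same on both strands can match more than once. Of 27 members with a window, 10 held a match (37%), against 2.6% of 27025 genes of any kind. These were Cdc6, Cdt1, Mcm3, Mcm5, Mcm6, Mcm7, Pola1, Rfc3, Lig1 and Uhrf1. The CHR letters TTTGAA and TTCGAA, an element of mitotic genes, matched in 5 of the 27 (18.5%), against 21.7% of all genes. The sites of the 5 genes whose arrays are given in full below are shown with up to 10 bases on either side, 5′ to 3′ on the strand of the gene, with the matched letters in capitals.
Pola1, chrX:93632276-93632303, minus strand, 138 bases before the start: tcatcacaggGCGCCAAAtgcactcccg
Uhrf1, chr17:56304118-56304145, plus strand, 185 bases before the start: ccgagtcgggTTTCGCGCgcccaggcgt
Mcm3, chr1:20820276-20820303, minus strand, from base 20 of the transcript: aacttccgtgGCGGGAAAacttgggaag
Mcm3, chr1:20820263-20820284, minus strand, from base 39 of the transcript: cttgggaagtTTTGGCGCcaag
Lig1, chr7:13278842-13278869, plus strand, from base 27 of the transcript: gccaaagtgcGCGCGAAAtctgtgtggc
Cdt1, chr8:122568037-122568064, plus strand, from base 33 of the transcript: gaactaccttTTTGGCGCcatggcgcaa
Of the 10 members with a match, 5 fell in the KO line and 5 did not pass, with a median log2 difference of -0.13. Of the 16 measured members whose windows held no match, 6 fell and 2 rose, with a median of -0.08. Among all genes 31.5% were lower, 21.6% were higher and 53.1% passed, with a median of -0.03. The share that passed was near this background with and without a match, and a difference between these members was not tested. A match of letters is a description of the sequence and not a binding site, and the absence of one speaks only for this window.

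The genes that open S phase moved in opposite directions in the KO line. Ccne2, which encodes cyclin E2, an activator of the kinase CDK2, read 8.16, 8.17 and 7.97 in KO arrays, 7.78, 7.83 and 7.61 in Het arrays and 7.60, 7.68 and 7.70 in WT arrays. Every KO array was above every other array, and Ccne2 rose by 0.44 ± 0.07 against WT (SE, limma adjusted p = 2.66e-04), the largest rise among the replication genes. E2f1, the activating E2F factor, read 9.29, 9.25 and 9.28 in KO arrays, 9.63, 9.71 and 9.81 in Het arrays and 9.73, 9.67 and 9.64 in WT arrays. The KO arrays were below all others at this probe set, and E2f1 fell by 0.41 ± 0.05 (limma adjusted p = 4.13e-05). At its other 2 probe sets the KO minus WT differences of -0.05 and -0.12 did not pass. Ccne1, the gene of the other E-type cyclin, stood at 0.06 in KO minus WT and did not pass (limma adjusted p = 0.268), with overlapping arrays. Its other probe set gave 0.24 (limma adjusted p = 0.00631), with all KO arrays above WT, and Ccne1 passed with the mean of probe sets (0.15, limma adjusted p = 0.00792).

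Of the origin licensing genes, Cdt1 fell and Cdc6 did not pass. Cdt1, whose protein brings the MCM ring to origins, read 10.56, 10.59 and 10.63 in KO arrays, 10.88, 10.91 and 10.91 in Het arrays and 10.94, 10.92 and 11.01 in WT arrays. The KO arrays stood apart from both other lines, a fall by 0.36 ± 0.04 against WT (limma adjusted p = 1.75e-05), and a second Cdt1 probe set gave -0.41. In Het minus WT that second probe set gave -0.23 (limma adjusted p = 0.0148), where the brighter gave -0.06 and did not pass. Cdc6, which binds the origin recognition complex, differed by 0.06 (limma adjusted p = 0.222).

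Among the 10 helicase genes 5 fell in the KO line and 5 did not pass. The share that passed was near the 53.1% of all genes that passed in either direction, and 31.5% of all genes were lower. Gins1, a subunit of the GINS complex, read 8.05, 7.94 and 8.15 in KO arrays, 8.15, 8.29 and 8.37 in Het arrays and 8.40, 8.35 and 8.43 in WT arrays. KO and WT arrays did not overlap, and Gins1 fell by 0.35 ± 0.06 (limma adjusted p = 8.51e-04), while the Het arrays spread from just above the KO range into the WT range. Its partner Gins2 fell by 0.18 ± 0.04 (limma adjusted p = 0.00247). Mcm3, a subunit of the MCM ring, read 10.56, 10.58 and 10.52 in KO arrays, 10.68, 10.67 and 10.78 in Het arrays and 10.74, 10.83 and 10.78 in WT arrays. All KO arrays were lowest, a fall by 0.23 ± 0.04 (limma adjusted p = 0.00113). Mcm4 (-0.16) and Mcm6 (-0.15) also fell at their brightest probe sets, whereas Mcm2 (-0.08), Mcm5 (-0.06), Mcm7 (0.06), Mcm10 (-0.13) and Cdc45 (0.04) did not pass. Mcm10 lay close to the threshold (limma adjusted p = 0.0520, 95% interval -0.24 to -0.02) and passed in 5 of 20 alternative settings. The Mcm6 call was lost with the mean of its probe sets (-0.02). At the brightest probe sets of the 6 subunits of the ring the differences ran from -0.23 in Mcm3 to 0.06 in Mcm7. Other probe sets reached -0.46 in Mcm3, 0.24 in Mcm7 and 0.43 in Mcm4, and differences between subunits were not tested.

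All 3 polymerase and primase genes fell in the KO line, where 31.5% of all genes were lower and 53.1% passed in either direction. Pola1, the catalytic subunit of polymerase alpha, read 8.62, 8.62 and 8.60 in KO arrays, 9.02, 9.12 and 9.01 in Het arrays and 9.26, 9.09 and 9.28 in WT arrays. The KO arrays lay below every other array, and the fall by 0.60 ± 0.05 (1.52-fold lower, limma adjusted p = 3.15e-06) was the largest among the 31 genes. Prim1, the catalytic primase subunit, read 9.80, 9.91 and 9.88 in KO arrays, 10.19, 10.28 and 10.19 in Het arrays and 10.24, 10.25 and 10.26 in WT arrays, a fall by 0.38 ± 0.04 (limma adjusted p = 1.90e-05). Only the KO arrays of Prim1 stood apart, and its second probe set gave -0.26. Pole, the catalytic subunit of polymerase epsilon, read 8.90, 8.79 and 8.92 in KO arrays, 9.25, 9.35 and 9.41 in Het arrays and 9.08, 9.08 and 9.10 in WT arrays. The 3 lines did not overlap: KO was lowest, by 0.21 ± 0.05 against WT (limma adjusted p = 0.00399), and Het was highest.

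Of 4 genes of the sliding clamp and its loader 2 fell and the others did not pass. The share that passed was again near the 53.1% of all genes that passed in either direction, and 31.5% of all genes were lower. Pcna, the clamp itself, read 12.64, 12.66 and 12.65 in KO arrays, 12.65, 12.73 and 12.74 in Het arrays and 12.98, 13.03 and 13.01 in WT arrays. KO and Het arrays overlapped and all lay below WT, so that Pcna fell by 0.36 ± 0.04 in KO (limma adjusted p = 1.57e-05). Of the RFC loader subunits, Rfc5 fell by 0.29 ± 0.05 (limma adjusted p = 2.74e-04), while Rfc3 (-0.12) and Rfc4 (-0.08) did not pass. A second Rfc4 probe set gave -0.21 (limma adjusted p = 0.0124) with arrays that did not overlap. With the mean of probe sets both Rfc4 (-0.15, limma adjusted p = 0.0123) and Rfc3 (-0.13, limma adjusted p = 0.0245) passed.

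On the lagging strand, Lig1 and Rpa2 fell and Fen1 did not pass. Lig1, the ligase that seals Okazaki fragments, read 10.63, 10.68 and 10.70 in KO arrays, 10.99, 11.06 and 11.15 in Het arrays and 10.95 in each WT array. KO arrays were below both other lines, by 0.28 ± 0.04 against WT (limma adjusted p = 2.61e-04). Rpa2, which coats unwound DNA, fell by 0.23 ± 0.06 (limma adjusted p = 0.00599). Fen1, the nuclease that trims the flap before ligation, differed by -0.01 (95% interval -0.13 to 0.12).

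Nucleotide supply held 2 of the 3 rises in the KO line. Of its 5 genes 2 rose and 1 fell. Among all genes 21.6% were higher, 31.5% were lower and 53.1% passed in either direction. Rrm2, the small subunit of ribonucleotide reductase whose level follows S phase, read 12.00, 11.98 and 11.93 in KO arrays, 11.67, 11.75 and 11.71 in Het arrays and 11.60, 11.67 and 11.64 in WT arrays. It rose by 0.34 ± 0.04 (limma adjusted p = 3.12e-05), with the KO arrays above all others, and its other 2 probe sets gave 0.25 and 0.58. Dut, the dUTPase that keeps uracil out of DNA, read 10.55, 10.49 and 10.64 in KO arrays, 10.40, 10.40 and 10.47 in Het arrays and 10.23 in each WT array. The 3 lines were separate, and Dut rose by 0.33 ± 0.04 in KO (limma adjusted p = 7.65e-05). Its other probe set, near the low-value limit at 6.48 to 6.75, gave -0.07 and did not pass. Tk1, the thymidine kinase of the salvage route, read 10.59, 10.62 and 10.59 in KO arrays, 10.93, 11.08 and 11.06 in Het arrays and 10.85, 10.88 and 10.85 in WT arrays. As for Pole the KO line was lowest and the Het line highest, and Tk1 fell by 0.26 ± 0.04 in KO (limma adjusted p = 4.51e-04). Rrm1, the large reductase subunit, differed by 0.04 and did not pass. Tyms, thymidylate synthase, was tested at a probe set near the low-value limit, with levels of 6.70 to 6.91, and differed by -0.03. The probe set that Tyms shares with its pseudogene, at 10.37 to 10.63, gave -0.07 and did not pass either. Uhrf1, which carries DNA methylation over to the new strand, read 10.27, 10.13 and 10.17 in KO arrays, 10.31, 10.29 and 10.39 in Het arrays and 10.07, 10.15 and 10.04 in WT arrays. Its KO and WT arrays overlapped (0.10 ± 0.05, limma adjusted p = 0.114).

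**Figure D2:**
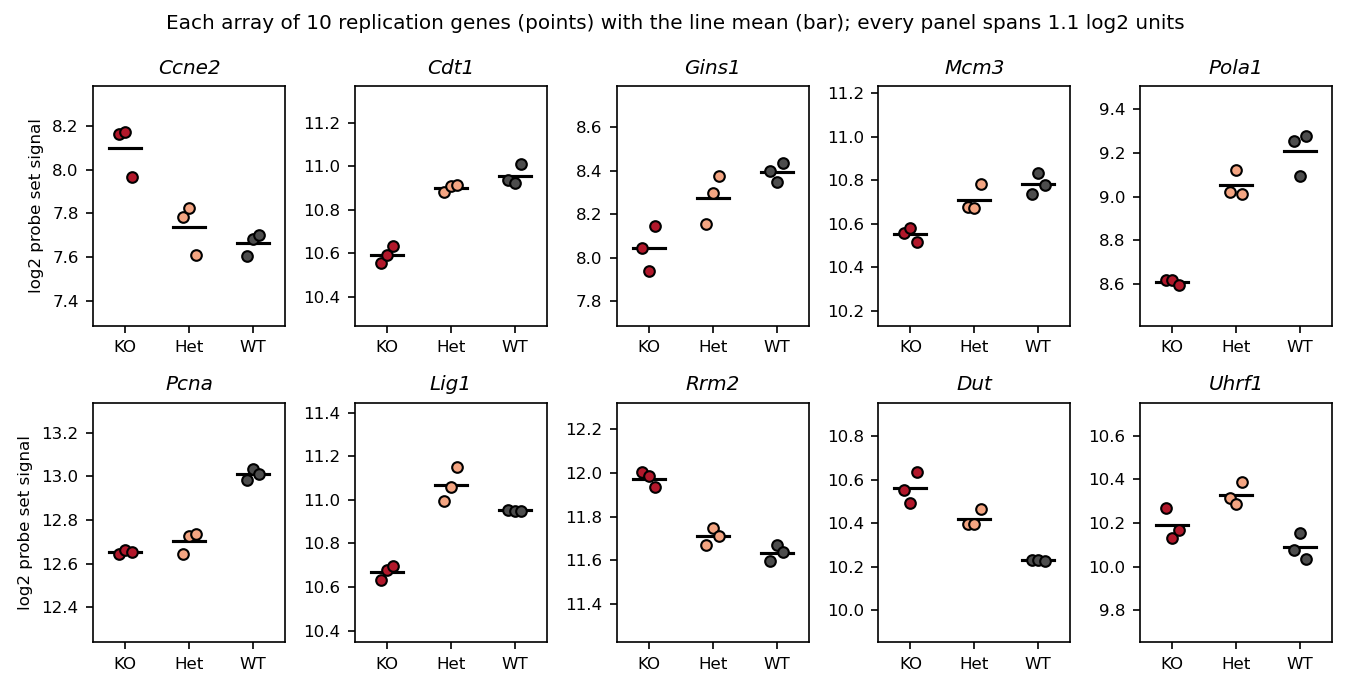
Log2 probe set signal on each of the 9 arrays for 10 replication genes, that with the largest KO minus WT difference in each of 8 roles and the next in the helicase and nucleotide supply roles; points are arrays, bars are line means, and each panel spans the same 1.1 log2 units. KO points lie below WT points for Cdt1, Gins1, Mcm3, Pola1, Pcna and Lig1 and above them for Ccne2, Rrm2 and Dut, while Het points overlap WT points in Ccne2, Gins1, Mcm3 and Pola1.

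In the Het line the replication genes moved to both sides of WT. Of the 31 genes, 5 fell, 6 rose and 20 did not pass, beside 21% of all genes lower and 13.4% higher and 34.4% that passed in either direction. The median log2 difference was 0.04, against -0.01 over all genes, and the folds of the 11 genes that passed ran from 1.10 to 1.24. None reached 2-fold, as 0.255% of all genes did. Pcna fell by 0.31 ± 0.04 (limma adjusted p = 1.88e-04), Mcm4 by 0.27 ± 0.04 (limma adjusted p = 2.59e-04) and Rpa2 by 0.23 ± 0.06 (limma adjusted p = 0.0111). Mcm6 (-0.14) and Pola1 (-0.16) passed narrowly. Pole rose by 0.25 ± 0.05 (limma adjusted p = 0.00314), Uhrf1 by 0.24 ± 0.05 (limma adjusted p = 0.00371) and Dut by 0.19 ± 0.04 (limma adjusted p = 0.00684). Tk1 (0.16), Ccne1 (0.16) and Mcm7 (0.15) rose as well. The Pola1 call (limma adjusted p = 0.0420) was lost in 12 of 20 alternative settings, with values from -0.21 to -0.10, and that of Mcm6 in 5, of Tk1 in 4 and of Ccne1 in 3. With the mean of probe sets the Het calls of Dut (0.03), Mcm4 (-0.04) and Mcm6 (-0.06) were lost. In that setting Mcm3 (-0.19, limma adjusted p = 0.00154), Rrm1 (-0.25, limma adjusted p = 8.86e-04) and Cdt1 (-0.14, limma adjusted p = 0.0174) passed as falls. Cdc45 passed there as a rise (limma adjusted p = 0.00786). The count of falls was 3 without WT replicate 3 or without Het replicate 1. Of the genes that passed among all 12962, 61.1% were lower, a share that was 51.3% with quantile normalization and 75.3% with median centring, and with median centring the rises numbered 3. RNA quality was read from beta-actin probe sets at the transcript's 3′ and 5′ ends, whose gap was 0.05 to 0.09 in KO, 0.09 to 0.12 in Het and 0.06 to 0.08 in WT arrays, and the same gap for Gapdh was -0.099 to -0.036 in KO, -0.0077 to 0.0041 in Het and -0.088 to -0.069 in WT arrays. The part of either gap in these differences was not tested.

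The KO line was also set against the Het line. The 3 comparisons share their arrays, so their values are given side by side and not counted as separate evidence. There 15 genes were lower, 4 were higher and 12 did not pass, where 28.6% of all genes were lower, 23.7% were higher and 52.3% passed in either direction. No member reached 2-fold, against 2% of all genes. The median was -0.11, with -0.02 over all genes. The largest falls in KO relative to Het were in Pole (-0.47 ± 0.05, limma adjusted p = 1.98e-05), E2f1 (-0.44 ± 0.05, limma adjusted p = 2.67e-05), Pola1 (-0.44 ± 0.05, limma adjusted p = 4.47e-05) and Tk1 (-0.42 ± 0.04, limma adjusted p = 1.49e-05), followed by Lig1 (-0.40) and Rfc5 (-0.36). Ccne2 (0.36), Rrm2 (0.26), Dut (0.14) and Mcm4 (0.11) were higher in KO. The call of Dut was lost in 5 of 20 alternative settings and that of Mcm4 in 4, both with quantile normalization among them, and of the lower genes Mcm2 lost its call in 13 and Uhrf1 in 8. Pcna (-0.05, 95% interval -0.14 to 0.04) and Rpa2 (-0.0012, 95% interval -0.13 to 0.13) did not pass between KO and Het at the probe sets tested, where each was below WT in both lines. The other Rpa2 probe set went another way, with -0.27 for KO minus Het (limma adjusted p = 0.00231) and -0.04 for Het minus WT (limma adjusted p = 0.648), and with the mean of probe sets Rpa2 passed between KO and Het (-0.14, limma adjusted p = 0.0297). Of all genes that passed, 54.6% were lower, and 42.1% with median centring, where 10 replication genes were lower and their median was -0.063. With quantile normalization 19 were lower. The count of higher genes was 2 without Het replicate 2.

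Several genes were read by more than 1 probe set, and these did not always agree. Of 20 members with several probe sets past the filter, 15 had KO minus WT differences of a single sign and 5 did not, and in the Het line 12 did and 8 did not. In 1 gene, Mcm4, probe sets passed in opposite directions in the fit of all 45037 probe sets. The probe set with the higher mean read 10.96, 10.90 and 10.91 in KO arrays, 10.83, 10.80 and 10.81 in Het arrays and 11.08, 11.06 and 11.10 in WT arrays, which is -0.16 for KO minus WT. The other, an _x_at probe set, read 10.14, 10.15 and 9.99 in KO, 9.93, 9.86 and 9.73 in Het and 9.63, 9.64 and 9.72 in WT arrays, which is 0.43 (limma adjusted p = 6.82e-04). The mean of the Mcm4 probe sets turned the KO difference to 0.14, so no direction is settled for this gene.

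Besides Mcm4, the KO minus WT signs differed between probe sets of Mcm6 (-0.15 and 0.11), Cdc45 (0.04 and -0.04), Rrm1 (0.04 and -0.04) and Dut (0.33 and -0.07). In the Het line they differed in Mcm2, Mcm4, Mcm6, Prim1, Rfc4, Fen1, Rrm2 and Dut. The ribonucleotide reductase genes differed in size as well. In the Het line the brightest Rrm1 probe set gave -0.02, while the second read 11.41, 11.37 and 11.36 in KO, 10.97, 10.84 and 11.00 in Het and 11.42, 11.45 and 11.39 in WT arrays, a Het minus WT difference of -0.48 (limma adjusted p = 1.94e-04). An Rrm2 probe set likewise gave -0.27 in Het minus WT (limma adjusted p = 0.00362), where the other 2 gave 0.08 and 0.05. Mcm3 was lower in KO at all 5 of its probe sets, from -0.46 to -0.13. In Het minus WT the same probe sets ran from -0.43 to -0.03. Mcm7 was higher at all 4, from 0.05 to 0.24, and 2 of these passed although the brightest did not. For 8 of the 31 genes, Rrm2, Mcm3 and Mcm7 among them, the probe set tested is of a type (name ending in _s_at or _x_at) whose oligonucleotides can also match similar sequences, and differences between probe sets of a gene were not tested.

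**Figure D3:**
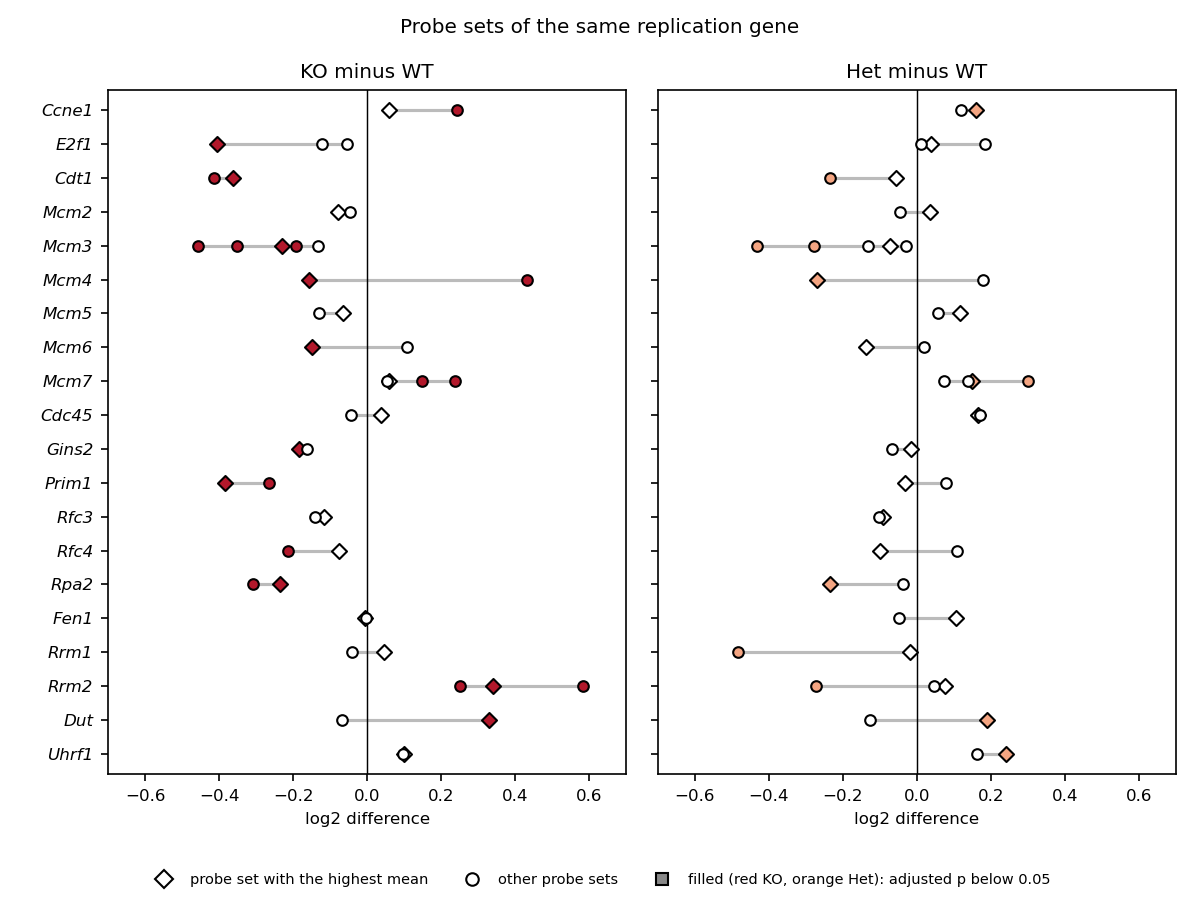
Log2 difference of every probe set past the low-value filter for the 20 replication genes with more than 1, KO minus WT (left) and Het minus WT (right); diamonds mark the probe set with the highest mean, circles the others, and filled points have an adjusted p below 0.05 in the fit of all probe sets. The Mcm4 points lie on both sides of 0 in the KO panel (-0.16 and 0.43), and 1 Rrm1 point lies at -0.48 in the Het panel.

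Other genes of the pathway were mostly lower where they differed between KO and WT. Of 50 measured genes outside the 32, such as origin recognition, polymerase and fork protection subunits, 25 fell, 4 rose and 21 did not pass, with a median of -0.14 and none at 2-fold. The 58% that passed was near the 53.1% of all genes. By direction 50% were lower and 8% higher, beside 31.5% and 21.6% of all genes. Cdc7, the kinase that fires origins, fell by 0.48 ± 0.05 (limma adjusted p = 7.48e-06), and Dscc1, a subunit of an alternative clamp loader, by 0.46 ± 0.05 (limma adjusted p = 1.97e-05). Orc5, of the origin recognition complex, fell by 0.43 and Rfc1, the large RFC subunit, by 0.38. In the Het line 11 of the 50 fell and 4 rose, with a median of -0.01. These are 22% lower and 8% higher, beside 21% and 13.4% of all genes.

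S phase checkpoint and repair genes fell in 10 of 16 cases in KO against WT, with 1 rise and a median of -0.14. That is 62.5% lower and 6.25% higher, beside 31.5% and 21.6% of all genes. Mcm8, a helicase of recombination repair, fell by 0.63 ± 0.09 (limma adjusted p = 1.52e-04), Brca2, a gene of recombination repair, by 0.45 ± 0.06 (limma adjusted p = 7.32e-05), the Fanconi anaemia gene Fanci by 0.35 and Rad54l by 0.32. In the Het line 1 of the 16 rose and 15 did not pass, where 13.4% of all genes were higher and 34.4% passed. Of 19 E2F, pocket protein and partner genes, 3 fell and 5 rose in KO, with a median of 0.01. The 26.3% that were higher lay near the 21.6% of all genes, and 15.8% were lower, beside 31.5%. Rbl1, a pocket protein that holds E2F in check, fell by 0.39, whereas Rb1, its relative, rose by 0.36, Lin52 by 0.35 and the phosphatase gene Cdc25a by 0.30. Against WT, the Het line had 6 of these 19 genes lower and 4 higher, with a median of -0.05. These are 31.6% lower and 21.1% higher, beside 21% and 13.4% of all genes. The 52.6% that passed lay above the 34.4% of all genes. Of 19 mitosis genes 7 fell and 3 rose in KO (36.8% lower, beside 31.5% of all genes), with a median of -0.04. Nusap1, a spindle protein gene, fell by 0.48, the cyclin gene Ccnb2 by 0.34 and the kinase gene Aurkb by 0.24, while Cdc20, an activator of the anaphase-promoting complex, rose by 0.26. In the Het line 5 of the 19 rose and 14 did not pass (26.3% higher, beside 13.4% of all genes, of which 34.4% passed). None of these lists held a gene at 2-fold in KO against WT.

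**Figure D4:**
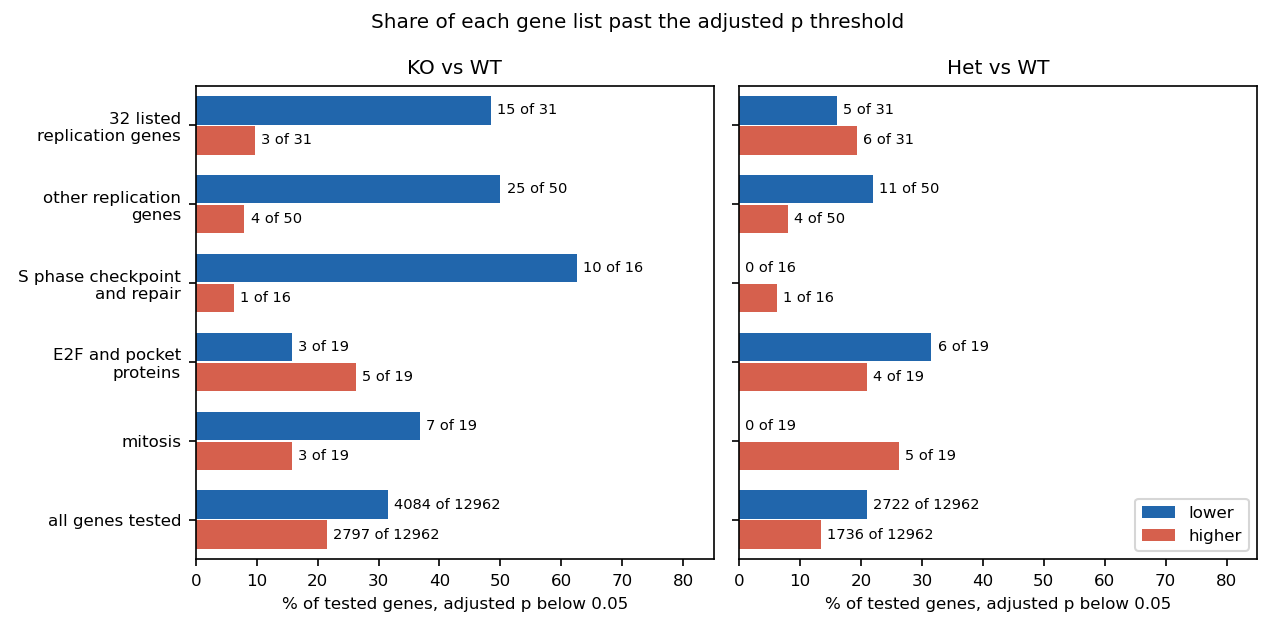
Share of each gene list, in percent of the genes tested, that was lower (blue) or higher (red) with an adjusted p below 0.05, in KO against WT (left) and Het against WT (right). In the KO panel the lower share is 48.4% for the listed replication genes, 50% for other replication genes and 62.5% for checkpoint and repair genes, beside 31.5% of all genes; in the Het panel it is 16.1% for the listed and 22% for other replication genes beside 21% of all genes.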

How the data were processed

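Expression was measured on 9 Affymetrix arrays. The values deposited by the authors cover 45101 probe sets on a log2 scale, the base being read from their range of 3.25 to 15.1. The submitters' processing notes name GCOS and Partek. Background correction, normalization and summarization are not given in the sources used here. Medians per array were 6.87 to 6.95, and the values were used without further scaling. Low intensities can compress differences.

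The 64 control probe sets and the lowest 40% by mean (below 6.22) were left out, and each gene was represented by its probe set of highest mean. Of the probe sets, 34945 carried 1 symbol, 932 several and 9160 none. The lines were compared with limma 3.58.1 (lmFit, eBayes) in R 4.3.3 on all 9 arrays, with p-values adjusted over all genes. Every member probe set was also fitted among all probe sets without a filter. Rose and fell are kept for adjusted p below 0.05. In data simulated for KO against WT over 12962 genes, 50 genes were given each size of difference and 12762 had none. There 42% of genes with a log2 difference of 0.2, 90% with 0.4 and 98% with 0.6 passed. In the measured arrays 53.1% of genes passed, which makes the adjustment less strict. The simulated shares are therefore not the pass rates of the comparison made here. Genes given on every array have the largest KO minus WT difference in their role (the 2 largest in roles of 5 or more genes), with E2f1, Prim1, Pole, Tk1 and Mcm4 added after their values were seen. From each other list up to 4 genes with the largest passing difference were named. The members and lists were chosen with earlier results of these data known. Precision is limited by the number of arrays. matplotlib 3.10.9 drew the figures.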

Additional observations from a re-analysis of the deposited data

How the results depend on the processing

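No replication gene reached 2-fold in any comparison under any alternative run at that minimum; at 1.5-fold 1 did in KO against WT (Pola1). The KO against WT count of 18 lay between 18 and 22 over 11 alternatives and 18 and 19 with each array left out, and its 15 falls between 15 and 16 in both. The 3 rises became 6 with the mean of probe sets, and the median lay between -0.16 and -0.11 with each array left out. In Het against WT the median was -0.0012 with median centring and 0.02 to 0.04 with each array left out, the 6 rises became 3 with median centring and 4 to 7 with each array left out, and the 5 falls numbered 3 to 4 with each array left out. In KO against Het the median was -0.17 with quantile normalization and -0.063 with median centring, and the 4 rises became 2 with quantile normalization and 2 to 4 with each array left out. With the mean of probe sets Mcm4 turned to 0.14 in KO against WT and Rfc4 to -0.15 in KO against Het; for Mcm4 the probe sets disagree in sign, as for Rfc4. Of 619 gene values per comparison under alternatives, calls were lost in 1 (KO against WT), 27 (Het against WT) and 36 (KO against Het). Calls were gained in 10, 12 and 14, in the same order. Over all genes, calls at 2-fold were 462, 33 and 259, and 1241, 236 and 895 at 1.5-fold; with all probe sets tested separately 702, 75 and 406, and 11293, 8318 and 11145 passed the p threshold, against 6881, 4458 and 6782 genes. Replicate numbers did not visibly pair arrays: deviations of same-numbered arrays correlated at -0.18 to 0.21, with 2 of 9 above 0.1. Those of differently numbered arrays correlated at -0.25 to 0.22, with 5 of 18 above 0.1. With the replicate block 19, 10 and 19 replication genes passed, against 18, 11 and 19. Signal near background limits Tyms and the dim probe set of Dut.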
